A study of Mus musculus with 4 samples.

Results

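The 10 genes described here mark the macrophages of the liver, above all the Kupffer cells: Clec4f, Cd5l, C1qa, C1qb, C1qc, Marco, Vsig4, Lyz2, Csf1r and Ctss. They were taken by symbol from the 33924 gene symbols of the count tables, and each of the 10 was found once. They were followed in liver RNA of C57BL6 mice, given as male C57BL/6Rj animals in the methods, at ages of 3, 9, 15 and 21 months. No mouse carried a transgene or received a treatment, and the groups differed by age and, with it, by pool and library. For each age, RNA of 24 mice was combined (6 time points of the day, 4 mice each), and 1 library was made from the pool. The spread between mice of an age was therefore not measured, and every interval below covers counting error only.

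Kupffer cells are the resident macrophages of the liver sinusoids, where they take up bacteria, immune complexes and worn-out red cells from the portal blood. They are seeded before birth, renew themselves locally, and depend on signalling through the receptor for colony stimulating factor 1. In a liver under stress they can be joined or replaced by macrophages that derive from blood monocytes. Some of the 10 genes are characteristic of Kupffer cells (Clec4f, Cd5l, Vsig4, Marco), whereas Csf1r, Lyz2, Ctss and the C1q genes are used by macrophages in general, and Lyz2 by monocytes and neutrophils as well.

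The libraries held between 525772 (15 months) and 958586 counts (9 months) on genes, so that 3 reads corresponded to between 3.13 and 5.71 cpm, the usual unit in which counts are scaled to a common total of counts on genes. A list of 10 hepatocyte genes, with Alb, Ttr and Trf at its top, took from 105143 to 116741 cpm, as the label of the tissue implies. Of 12 monocyte genes, Ly6c1, Ly6c2, Chi3l3, Lyz1 and Clec4e were listed at 0 in all libraries, and of 9 neutrophil genes S100a9, Retnlg, Mpo and Elane. A listed 0 does not show that a transcript was absent. Records without a unique alignment, 72.2% (3 months) to 76.7% (9 months) of all records, were not counted on genes. The bile duct list (Sox9, Krt19 and Krt7 at its top) had between 6 and 18 counts per library.

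With regard to the whole group, 816, 988, 524 and 814 reads came from the 10 genes at 3, 9, 15 and 21 months, an order of ages that is kept for all values below. Relative to the counts on genes these were 854 cpm (95% Wilson interval from 797 to 914), 1031 cpm (968 to 1097), 997 cpm (915 to 1086) and 1106 cpm (1033 to 1185). The 3 month pool was thus the lowest of the 4 and the 21 month pool the highest. In bulk RNA, a different number of macrophages and a different amount of these transcripts per cell cannot be told apart. Cd5l gave 302, 408, 226 and 319 of these reads, and the 9 other genes together 514, 580, 298 and 495. Scaled by depth, the 9 genes without Cd5l amounted to 538, 605, 567 and 673 cpm. In cpm the 3 month pool was thus the lowest and the 21 month pool the highest without the most counted gene, too. The intervals of neighbouring values overlapped, as at 3 months (493 to 586) and 15 months (506 to 635).

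Because libraries differed in depth, ages were compared on the scale of the centered log-ratio (clr), on which a count is divided by the geometric mean of all 8704 genes with a count in every library. On this scale the summed reads of the 10 genes were 1.24-fold higher at 9 than at 3 months (exact 95% interval from 1.13 to 1.36), 1.07-fold at 15 months (0.955 to 1.19) and 1.26-fold at 21 months (1.14 to 1.39). The 15 month value was within counting noise of the 3 month value, and its direction was not stable: leaving out Cd5l gave 0.964-fold (0.833 to 1.11), and library totals as the scale gave 1.17-fold (1.04 to 1.30). From 15 to 21 months the sum was 1.18-fold higher (1.06 to 1.32), or 1.11-fold (0.993 to 1.24) when library totals were taken as the scale. These ratios share libraries and are not independent of each other.

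**Figure D1:**
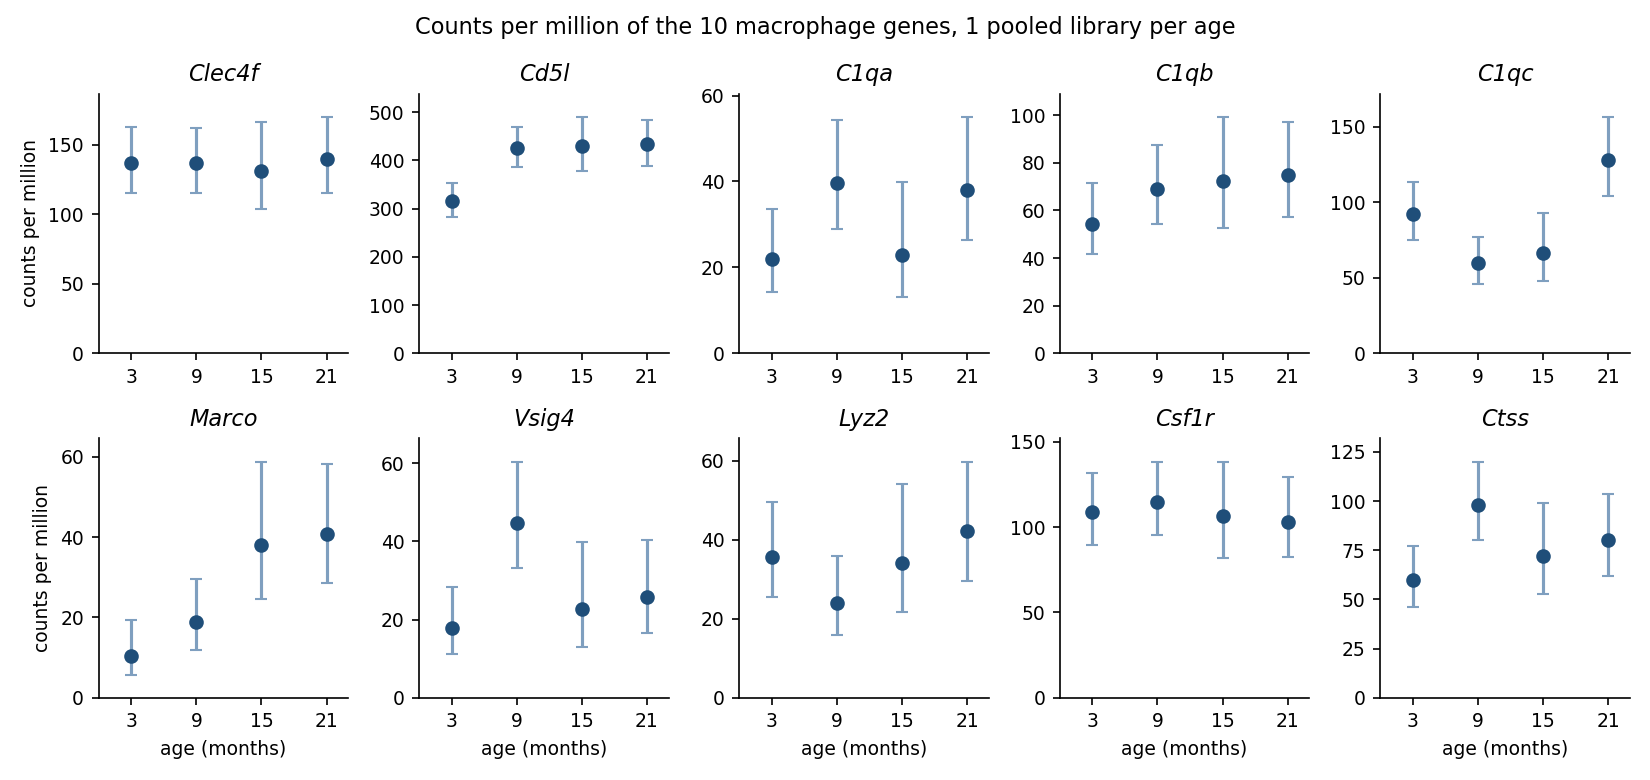
Depth-scaled counts (cpm) of each of the 10 macrophage genes (vertical axes, from 0) against age in months (horizontal axes). Each point is 1 library made from a pool of 24 mice, and the bars are 95% Wilson intervals of the count. Clec4f stays between 131 and 140 cpm, whereas Marco goes from 10.5 cpm at 3 months to 40.8 cpm at 21 months.

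Clec4f encodes a C-type lectin that in the mouse liver is made almost exclusively by Kupffer cells. The gene had 131, 131, 69 and 103 reads, which were 137, 137, 131 and 140 cpm. All 4 pools lay within the counting interval of each other. The ratio of 21 over 3 months was 0.994 on the clr scale (exact 95% interval from 0.76 to 1.30), so that counting error alone leaves room for ratios within this range. The variance of clr of Clec4f over the 4 ages was 0.00493, at the percentile 1.33 among the 8704 genes.

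Csf1r, the receptor for colony stimulating factor 1 and interleukin 34 on which Kupffer cells depend, showed the same flat course. Its counts were 104, 110, 56 and 76, or 109, 115, 107 and 103 cpm, with a 21 over 3 month ratio of 0.924 (0.678 to 1.25). Its variance of clr was 0.00718. In a library, Csf1r had between 0.738 (21 months) and 0.84 (9 months) reads per read of Clec4f, a ratio that does not depend on the scaling of libraries.

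Cd5l encodes a secreted scavenger protein (also named AIM) that is released by tissue macrophages, circulates bound to immunoglobulin M and restrains their death. With 302, 408, 226 and 319 reads it was the most counted of the 10 genes and took between 37.0% and 43.1% of their reads. Its level was 316 cpm at 3 months, and 426, 430 and 433 cpm at 9, 15 and 21 months. The 3 later pools were close to each other, and the 3 month pool was lower than all of them. The ratios to 3 months on the clr scale were 1.38 (1.19 to 1.61), 1.24 (1.04 to 1.48) and 1.34 (1.14 to 1.57), and the ratio of 21 over 15 months was 1.07 (0.902 to 1.28). Per read of Clec4f, there were 2.31 reads of Cd5l at 3 months (1.87 to 2.85), 3.11 at 9 months (2.55 to 3.82), 3.28 at 15 months (2.49 to 4.35) and 3.10 at 21 months (2.47 to 3.91).

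Marco encodes a scavenger receptor with a collagenous domain that binds bacteria and particles. In the 4 pools 10, 18, 20 and 30 reads of it were found. These were 10.5, 18.8, 38.0 and 40.8 cpm, so that the value was higher in each older pool. The clr ratios to 3 months were 1.84 (0.806 to 4.46), 3.33 (1.49 to 7.95) and 3.79 (1.80 to 8.70). The intervals at 15 and 21 months lay above 1 although they are wide, as 10 reads at 3 months are the base of all of them. Per read of Clec4f, Marco had 0.0763 reads at 3 months (0.0358 to 0.145) and 0.291 at 21 months (0.187 to 0.441). Of the other leukocyte lists, those of B and plasma cells, neutrophils and T and NK cells were also lowest at 3 months. The B and plasma cell list (8 genes, of which Ms4a1 and 2010001M09Rik were at 0) had from 3.14 to 77.4 cpm, lowest at 3 and highest at 21 months, and the neutrophil list from 2.09 cpm at 3 months to 76.1 cpm at 15 months, where Lcn2 gave 32 of its 40 reads. The T and NK cell list had between 11.5 cpm at 3 months and 34.0 cpm at 21 months. The monocyte list (110 reads at 3 months) and the list for leukocytes in general (229 reads) were better counted, and had from 115 to 204 cpm and from 240 to 322 cpm, lowest at 3 and highest at 21 months. Their part in the value of Marco was not tested.

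Vsig4 encodes the complement receptor of the immunoglobulin superfamily with which Kupffer cells catch particles coated with C3 fragments. It had 17, 43, 12 and 19 reads, or 17.8, 44.9, 22.8 and 25.8 cpm. Only the 9 month pool stood out, with a ratio to 3 months of 2.59 (1.44 to 4.84), whereas the ratios at 15 months (1.17, from 0.511 to 2.61) and 21 months (1.41, from 0.696 to 2.89) were within counting noise of 1. Ctss, the lysosomal protease cathepsin S that cuts the invariant chain of class II molecules, was highest in the same pool. Its counts were 57, 94, 38 and 59, or 59.6, 98.1, 72.3 and 80.2 cpm, and its 9 over 3 month ratio was 1.69 (1.20 to 2.39). At 21 months Ctss had a ratio of 1.31 (0.894 to 1.92).

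**Figure D2:**
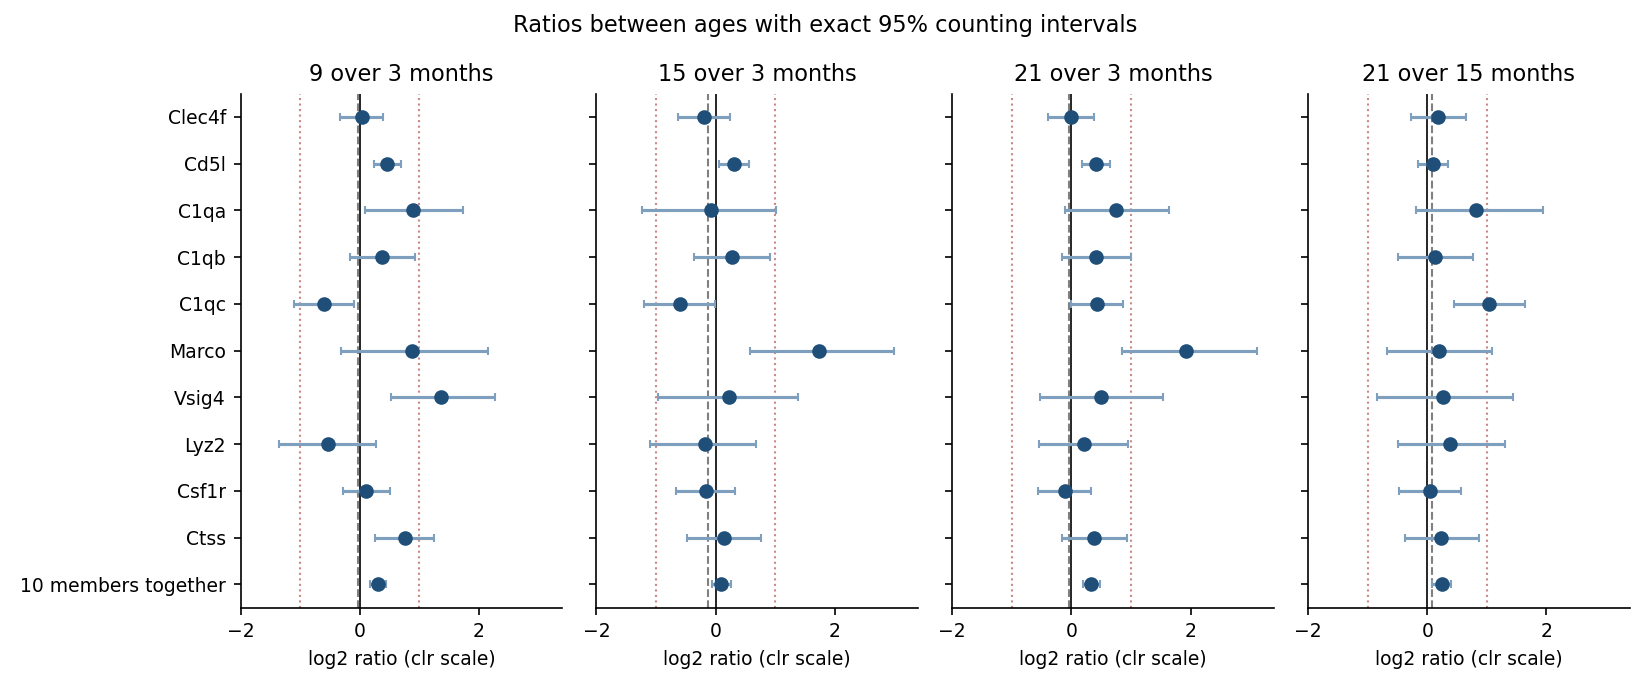
Log2 ratios between pairs of ages on the clr scale (horizontal axes) for each of the 10 genes and for their summed reads (vertical axis). Points are 1 library against 1 library, bars are exact 95% counting intervals, the dashed line is the median of all genes with at least 20 counts in both libraries together, and dotted lines mark 2-fold. Past 2-fold lie Vsig4 at 9 months, Marco at 15 and 21 months, and C1qc from 15 to 21 months.

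The 3 chains of C1q, the recognition protein of the classical complement pathway, are encoded by C1qa, C1qb and C1qc and assemble in equal numbers. In contrast to most complement proteins of the blood, which come from hepatocytes, C1q is made mainly by macrophages and dendritic cells. Their genes lie side by side on the minus strand of chromosome 4 of NCBIM37 (the assembly also called mm9) within 18675 bases. C1qb spans 136436044 to 136442102, C1qc 136445719 to 136448980 and C1qa 136451832 to 136454718, with 3616 and 2851 bases between neighbours.

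The reads of C1qc did not run in parallel with those of its neighbour C1qb. C1qa had 21, 38, 12 and 28 reads (22.0, 39.6, 22.8 and 38.0 cpm) and C1qb 52, 66, 38 and 55 (54.4, 68.9, 72.3 and 74.7 cpm). C1qc had 88, 57, 35 and 94 reads, or 92.1, 59.5, 66.6 and 128 cpm. For C1qb none of the 4 ratios computed (9, 15 and 21 over 3 months, and 21 over 15 months) left counting noise, and for C1qa the one of 9 over 3 months did (1.85, from 1.06 to 3.32). C1qc, on the other hand, was lower at 9 and 15 months than at 3 months, with ratios of 0.662 (0.466 to 0.935) and 0.661 (0.434 to 0.989). With library totals as the scale these ratios were 0.646 (0.455 to 0.912) and 0.723 (0.474 to 1.08), so that the 15 month interval then held 1. From 15 to 21 months C1qc was 2.04-fold higher (1.37 to 3.10). Within a library, C1qc had 1.69 reads per read of C1qb at 3 months (1.19 to 2.43) and 1.71 at 21 months (1.21 to 2.43), but 0.864 at 9 months (0.595 to 1.25) and 0.921 at 15 months (0.565 to 1.50). C1qa had 0.404 reads per read of C1qb at 3 months (0.231 to 0.682), 0.576 at 9 months (0.376 to 0.871), 0.316 at 15 months (0.15 to 0.617) and 0.509 at 21 months (0.311 to 0.817). The intervals of the 4 libraries all overlapped for C1qa per read of C1qb. Those for C1qc per read of C1qb all overlapped as well, that of 9 months only narrowly with those of 3 and 21 months. The summed reads of the 3 genes were 161, 161, 85 and 177, which were 168, 168, 162 and 241 cpm. The sum of the 21 month pool was 1.39-fold that of the 3 month pool (1.12 to 1.73).

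According to the methods, reads were produced from capped 5’-ends, so that the protocol was aimed at the start of a gene. The deposited counts are by gene, and where in a gene the reads lay cannot be seen from them. The 250 bases before the RefSeq start of a gene are shown for C1qb and C1qc as the unequal neighbours, for Lyz2 as the further gene with the same motif, for Marco as the gene with the largest ratio, and for Cd5l as the most counted one. All are on GRCm38.p6, from RefSeq, written on the strand of the gene: C1qb chr4:136886201-136886450 (minus), C1qc chr4:136892915-136893164 (minus), Lyz2 chr10:117282273-117282522 (minus), Marco chr1:120505025-120505274 (minus) and Cd5l chr3:87357631-87357880 (plus). Capitals mark the motif AGGAAGT of PU.1, the master transcription factor of macrophages, here read on the opposite strand.
C1qb: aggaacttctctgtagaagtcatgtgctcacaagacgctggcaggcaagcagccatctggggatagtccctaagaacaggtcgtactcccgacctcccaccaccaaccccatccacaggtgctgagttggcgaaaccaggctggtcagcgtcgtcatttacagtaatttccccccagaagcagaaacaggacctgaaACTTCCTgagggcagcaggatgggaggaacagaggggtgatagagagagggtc
C1qc: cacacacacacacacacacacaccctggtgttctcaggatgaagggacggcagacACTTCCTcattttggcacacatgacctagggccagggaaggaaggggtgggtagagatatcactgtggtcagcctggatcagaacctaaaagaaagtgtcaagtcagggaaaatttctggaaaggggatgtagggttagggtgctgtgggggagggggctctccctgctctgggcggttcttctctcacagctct
Lyz2: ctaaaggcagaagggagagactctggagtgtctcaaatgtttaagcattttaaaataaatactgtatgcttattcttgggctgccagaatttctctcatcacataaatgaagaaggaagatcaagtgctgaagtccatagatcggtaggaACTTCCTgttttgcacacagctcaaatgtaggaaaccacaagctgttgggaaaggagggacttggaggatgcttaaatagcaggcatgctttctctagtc
Marco: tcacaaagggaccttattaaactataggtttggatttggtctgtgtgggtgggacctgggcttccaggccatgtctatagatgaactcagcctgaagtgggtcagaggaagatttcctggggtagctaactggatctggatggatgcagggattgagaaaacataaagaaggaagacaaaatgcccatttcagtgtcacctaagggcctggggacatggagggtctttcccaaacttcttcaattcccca
Cd5l: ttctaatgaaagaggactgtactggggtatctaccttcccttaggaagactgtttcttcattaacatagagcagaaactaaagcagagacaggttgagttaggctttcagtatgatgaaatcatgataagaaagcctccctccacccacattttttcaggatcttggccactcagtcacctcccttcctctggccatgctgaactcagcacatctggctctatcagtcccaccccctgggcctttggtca

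Windows of 300 bases (250 before and 50 after the start) were found for 8 of the 10 genes, and not for C1qa and Csf1r. The motif AGGAAGT, searched on both strands, was present in 4 of the 8 (C1qb, C1qc, Lyz2 and Ctss) and in 9.35% of all 32851 windows. In Ctss the match covers the start itself. TTGCNNAA (C/EBP) was found in none of the 8 and in 10.8% of all windows, and GAAANNGAA (IRF) in Ctss and in 8.56%. The letters TATAAA were found in Ctss and in 13.6% of all windows. No match of the different motifs overlapped another. The start of C1qc in the GENCODE annotation of NCBIM37 lies 151 bases before the RefSeq start, which puts the match 44 bases before it, as compared to 66 bases for C1qb and 51 bases for Lyz2. For Marco the GENCODE start lies 60 bases and for Lyz2 49 bases before the RefSeq start. The last bases shown for C1qc, Marco and Lyz2 are thus within the transcribed region of GENCODE. These matches are letters in a window, and binding was not measured.

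Lyz2, which encodes the lysozyme of macrophages, monocytes and neutrophils, had 34, 23, 18 and 31 reads, or 35.6, 24, 34.2 and 42.1 cpm. None of the same 4 ratios left counting noise, and that of 21 over 3 months was 1.15 (0.685 to 1.93). Its counts are uncertain for another reason. Each of the 66 windows (35 bases long) at the 5’-end of its transcript matched a second place in NCBIM37 with at most 1 mismatch, at Lyz1 or Gm10936. Lyz1, which encodes the lysozyme of the gut, lies 5474 bases from Lyz2 on chromosome 10, and both Lyz1 and Gm10936 were listed at 0. Reads without a unique alignment were not counted on genes, so that the counts of Lyz2 may hold a part of its reads. None of the windows of the other 9 genes had a second place. For C1qa, however, 28 of the 66 windows lay across exons and matched no place in NCBIM37, so that the search says nothing about them.

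The remaining genes are annotated as protein-coding as well. Clec4f lies on the minus strand of NCBIM37 chromosome 6 (83594536 to 83606181), Marco on the minus strand of chromosome 1 (122371115 to 122401661) and Vsig4 on the minus strand of chromosome X (93442542 to 93488777). Cd5l (87161803 to 87174996) and Ctss (95330708 to 95360325) are both on the plus strand of chromosome 3. Lyz2 spans 116714390 to 116719377 on the minus strand of chromosome 10. Exons of another gene overlapped only Csf1r (Hmgxb3), whose reads in the shared part could be counted as ambiguous.

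Csf1r itself is found on chromosome 18 (plus strand), between 61265226 and 61291803.

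To compare single genes with the rest of the transcriptome, each pair of ages was read against the genes with at least 20 counts in both libraries together, a number that all 10 genes reached in every pair. At 9 over 3 months, 1 of the 10 genes (Vsig4) was at least 2-fold higher and none 2-fold lower, as compared to 8.12% higher and 9.5% lower of 5613 genes. At 15 over 3 months, 1 gene (Marco) was higher and none lower, against 8.04% and 13.1% of 4964 genes. At 21 over 3 months, it was again Marco, against 8.52% higher and 10.7% lower of 5304 genes. At 21 over 15 months, C1qc alone was 2-fold higher, against 9.86% higher and 7.78% lower of 4514 genes. One gene in 10 per comparison is close to these shares. C1qc fell below 2-fold (1.92) when the ratio of library totals was used.

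As regards the direction, 8 of the 10 genes had a ratio above 1 at 9 over 3 months (48.5% of all genes), 5 at 15 over 3 months (42.4%), 8 at 21 over 3 months (47.6%) and 10 at 21 over 15 months (54.4%). The median log2 ratios of the 10 genes were 0.42, 0.04, 0.42 and 0.21, beside medians of -0.03, -0.13, -0.04 and 0.07 over all genes. The geometric mean and the library totals differed most as scales at 15 over 3 months, by 0.13 on the log2 scale. With library totals, 7, 6, 9 and 9 of the 10 genes were above 1. At 21 over 3 months Clec4f and Csf1r were not above 1, and with library totals Csf1r alone. With the geometric mean of Atp5h, Gsk3b and Sirt2 as the scale, both were above 1, with log2 ratios of 0.20 and 0.09.

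For every gene, a slope with age was fitted over the 4 libraries with edgeR (quasi-likelihood test), with 2 residual degrees of freedom left. None of the 10 genes passed an adjusted p of 0.05. Of all 5569 genes tested, 3 (0.0539%) rose and 3 (0.0539%) fell with age. At an unadjusted p under 0.05, there was 1 of the 10 genes (Marco) beside 5.21% of all genes, and with DESeq2 none of the 10. The slope of Marco was 0.11 ± 0.04 (SE) on the log2 scale per month, or 1.96 ± 0.73 over 18 months (adjusted p = 0.617 with edgeR's quasi-likelihood test). The slope of Marco had the same sign in all 7 alternatives tried, which gave adjusted p-values from 0.59 to 0.999 with edgeR or DESeq2. Without the 3 month library it was 0.085 per month and no longer under an unadjusted p of 0.05. The slopes of the other 9 genes over 18 months were between -0.14 ± 0.43 for Csf1r and 0.46 ± 0.43 for C1qc, each within about its standard error of 0 (adjusted p = 0.998 for 8 of them and 0.999 for Vsig4 with edgeR's quasi-likelihood test). None of these slopes was called, and 7 of the 9 had the opposite sign in at least 1 alternative. That of C1qc was -0.0444 per month without the 21 month library.

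Counting noise was examined separately, by comparing the 4 counts of each gene with the shares that the geometric means predict (chi-square test), which compares these libraries and not the ages. At an adjusted p of 0.05, 5 of the 10 genes differed between the libraries, beside 25.3% of the 8704 genes. Among the 3382 genes with at least 10 counts in every library, to which all 10 belong, the share was 36.6%, with the same 5 genes called. These were C1qc (adjusted p = 0.000283), Cd5l (0.00141), Marco (0.00321), Vsig4 (0.0100) and Ctss (0.0416), and Ctss was lost when library totals were the scale. C1qa (0.119), C1qb (0.56), Lyz2 (0.434), Csf1r (0.716) and Clec4f (0.823) did not pass. C1qa, Marco, Vsig4 and Lyz2 had the fewest reads, between 10 and 43 per library, and their ratios had the widest intervals.

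The study judged reference genes by several assessments, of which those by Nanostring hybridization and in published data were not repeated here. For its RNA-sequencing data, it asked for a mean clr over the median and a clr variance under the median of its own set of genes. Over the 8704 genes used here these medians were -0.21 and 0.16. Of the 10 genes, 8 met both criteria, beside 38.1% of all genes. All 10 had a mean above the median, from 0.294 for Marco to 3.12 for Cd5l. The 38.1% is over all genes, also those with a mean below the median, and is thus not a like background for the 10. Marco (variance 0.374) and Vsig4 (0.173) failed on the variance. The variances expected from counting noise were 0.0597 and 0.0545 for this pair. The variances of the others were 0.121 for C1qc, 0.12 for C1qa, 0.052 for Ctss, 0.047 for Lyz2, 0.0211 for Cd5l and 0.0171 for C1qb, besides the low values of Csf1r and Clec4f. For Clec4f, Csf1r and C1qb the variance was below what counting noise gives (0.00987, 0.0124 and 0.0197). Requiring 10 counts in every library, which takes the medians over 3382 more strongly counted genes, left 5 genes that passed. The share of those 3382 genes that met both criteria is not given, so that the 5 genes cannot be set beside it.

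**Figure D3:**
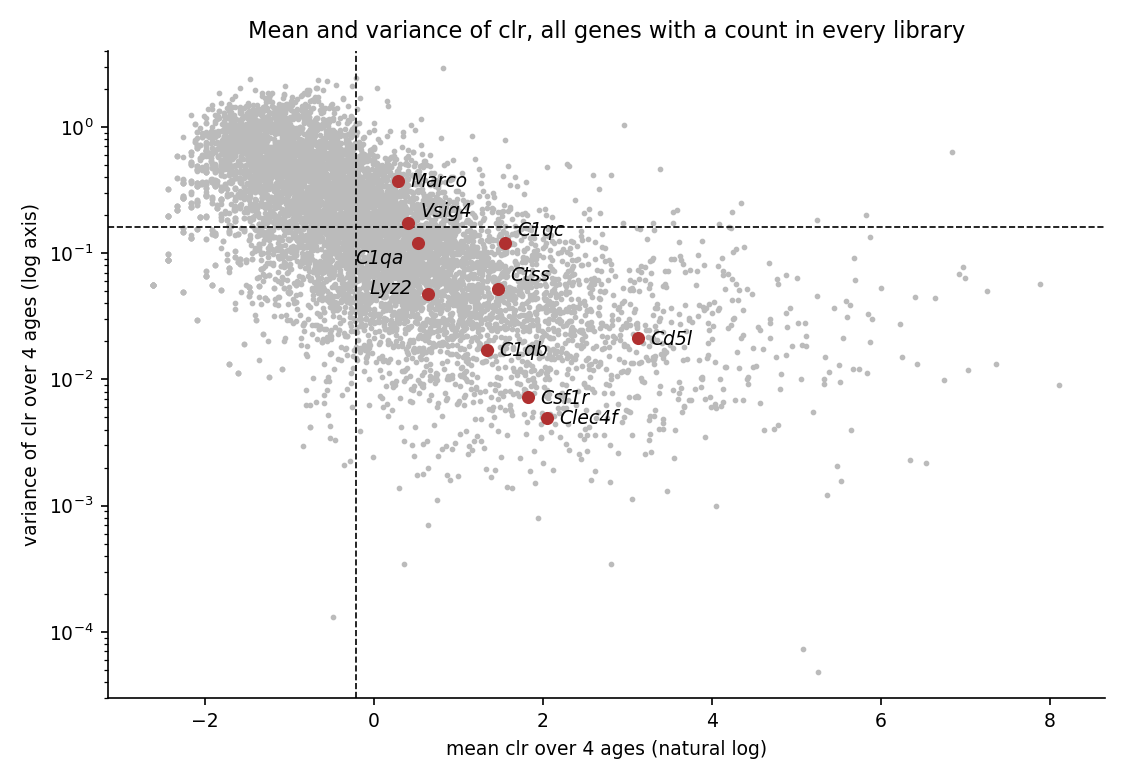
Variance of clr over the 4 ages (vertical log axis) against mean clr (horizontal axis, natural logarithm) for the 8704 genes with a count in every library (grey) and the 10 macrophage genes (red), with the medians of all genes as dashed lines. All 10 genes lie right of the median, and only Marco and Vsig4 lie above the median variance.

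Other genes of resident macrophages were read from a list of 22 genes, all of them counted in at least 1 library. Together they had 589, 713, 793 and 745 cpm at the 4 ages, and on the clr scale 1.24-fold (1.11 to 1.39), 1.23-fold (1.08 to 1.40) and 1.23-fold (1.09 to 1.39) the 3 month value. The 3 month pool was the lowest here as well, and the ratio of 21 over 15 months was 0.999 (0.878 to 1.14). The median log2 ratio was 0.20 at 9 over 3 months and -0.03 at 15 over 3 months, so that sum and median differed in sign at 15 months. None of the 18 genes tested for a slope passed. The most counted were Mpeg1, a pore-forming protein of phagosomes, with 70, 63, 41 and 86 reads (21 over 3 months 1.55, from 1.12 to 2.16), Emr1, which encodes the F4/80 antigen, with 66, 47, 39 and 98 reads (1.88, from 1.36 to 2.61), and the mannose receptor Mrc1 with 50, 80, 32 and 55 reads (1.39, from 0.931 to 2.08). For Emr1 and Mpeg1 the 21 month pool was the highest in cpm. These 3 genes were named by their counts, and all of them had a ratio above 1 at 21 over 3 months, unlike the list as a whole. Of the 16 genes with at least 20 counts at 3 and 21 months together, 9 had a ratio above 1, beside 47.6% of all genes, and the median log2 ratio was 0.05.

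Of the ligands of Csf1r and the transcription factors of macrophages, 12 of 13 genes were found in the files, and only 5 had enough reads for the trend test, with none passing. The most counted were Id3 (155, 105, 96 and 116 reads), Nr1h3, the liver X receptor alpha (77, 73, 21 and 60), and Maf (64, 62, 35 and 50), all of which hepatocytes or other liver cells use too. Their 21 over 3 month ratios were 0.946 (0.737 to 1.21), 0.985 (0.691 to 1.40) and 0.988 (0.668 to 1.45). As a group the list had 373, 314, 373 and 398 cpm. At 21 over 3 months its sum (1.04, from 0.886 to 1.21) and its median log2 ratio (-0.02) differed in sign.

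The partners of C1q in the classical pathway and its inhibitors, most of which come from hepatocytes, were counted in far larger numbers. The 12 genes had 11064, 11946, 14316 and 13210 cpm, of which most belonged to C3 with 7230, 8105, 5718 and 7238 reads. The ratios of the list to 3 months were 1.11 (1.08 to 1.14), 1.18 (1.15 to 1.22) and 1.16 (1.13 to 1.19). Serping1, the C1 inhibitor, had 1080, 1000, 539 and 866 reads and a 21 over 3 month ratio of 1.01 (0.926 to 1.11), and C4b 565, 399, 339 and 338 reads and a ratio of 0.756 (0.659 to 0.867). C4b shares near-identical sequence with C4a, so that both counts are uncertain. The sum was led by C3: the median log2 ratio of the list was -0.06 at 15 and -0.16 at 21 over 3 months. None of the 12 passed the trend test.

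Among 23 lysosomal genes, the family to which the product of Ctss belongs, 19 were tested for a trend and none passed. The list had 2822, 2700, 2864 and 2897 cpm, and its ratio of 21 over 3 months was 0.999 (0.944 to 1.06). The most counted were the cathepsins Ctsl (297, 456, 202 and 279 reads), Ctsb (320, 340, 182 and 235) and Ctsd (371, 255, 153 and 239), with 21 over 3 month ratios of 1.19 (1.01 to 1.40), 0.929 (0.781 to 1.10) and 0.815 (0.689 to 0.961). These proteases are made by most liver cells.

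Markers of other blood and liver cells were counted for the same pools. The monocyte list had 115, 167, 137 and 204 cpm, nearly all of it from Cd44 (80, 96, 50 and 107 reads) and Plac8 (21, 51, 9 and 28), while Ccr2 had 2, 4, 6 and 7 reads. The list for leukocytes in general had 240, 251, 299 and 322 cpm, with Lcp1 (74, 80, 43 and 66 reads), Cybb (24, 36, 33 and 33) and Cd52 (27, 26, 19 and 39) at its top. Of 9 genes of lipid-associated macrophages, Trem2 had 1 read in all and Gpnmb 3, and Cd63 was listed at 0 in all libraries. The list was led by Fabp5 (172, 112, 57 and 127 reads), Lpl (30, 36, 19 and 34) and Cd9 (21, 16, 17 and 23). None of the genes of these 3 lists that could be tested passed the trend test. The B and plasma cell list held the only gene of all 16 lists that passed, Ighm with 2, 8, 19 and 39 reads (adjusted p = 0.0127, edgeR's quasi-likelihood test). With DESeq2 no gene passed, Ighm included. Its other most counted genes were Igkc (0, 13, 1 and 6 reads) and Igj (0, 3, 3 and 7). The neutrophil list was led by Lcn2 (0, 9, 32 and 23 reads), which hepatocytes make as well, before S100a8 (1, 1, 6 and 2) and Ngp (0, 0, 1 and 2), and the T and NK cell list by Ccl5 (4, 3, 1 and 9), Cd3d (0, 6, 0 and 3) and Cd4 (0, 1, 5 and 1).

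The sinusoidal endothelial list, whose cells line the same vessels, had 1297, 1267, 1202 and 1272 cpm, and a 21 over 3 month ratio of 0.954 (0.876 to 1.04). That ratio was 1.26 for the 10 macrophage genes, 1.72 (1.34 to 2.23) for the monocyte list and 1.31 (1.09 to 1.58) for leukocytes in general. Of the 12 endothelial genes, 6 had a ratio above 1, beside 47.6% of all genes. The most counted endothelial genes were Oit3 (224, 302, 193 and 197 reads), Dnase1l3 (191, 185, 72 and 116) and Stab1 (119, 127, 74 and 142), of which Stab1 is used by macrophages, too. The stellate and fibroblast list had 684, 1068, 1158 and 1049 cpm and a ratio of 1.49 (1.34 to 1.66), with Ecm1 (231, 358, 203 and 247 reads), Dcn (192, 377, 162 and 219) and Reln (87, 121, 83 and 123) as the most counted. The red cell list, a measure of blood left in the tissue, had 1609, 2365, 1708 and 1376 cpm, mostly from Hbb-b1 with 865, 1511, 598 and 617 reads, Hbb-b2 with 475, 596, 224 and 268 and Alas2 with 147, 101, 32 and 82. The red cell list was highest in the 9 month pool, in which C1qa, Csf1r, Vsig4 and Ctss had their highest cpm as well. The lead was small for Csf1r (115 cpm, against 109 cpm at 3 months) and C1qa (39.6 cpm, against 38.0 cpm at 21 months). The other macrophage genes had their highest cpm at 21 months. Alas2 was highest at 3 months (154 cpm, against 105 cpm at 9 months). The part of these other cells in the values of the macrophage genes was not tested.

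**Figure D4:**
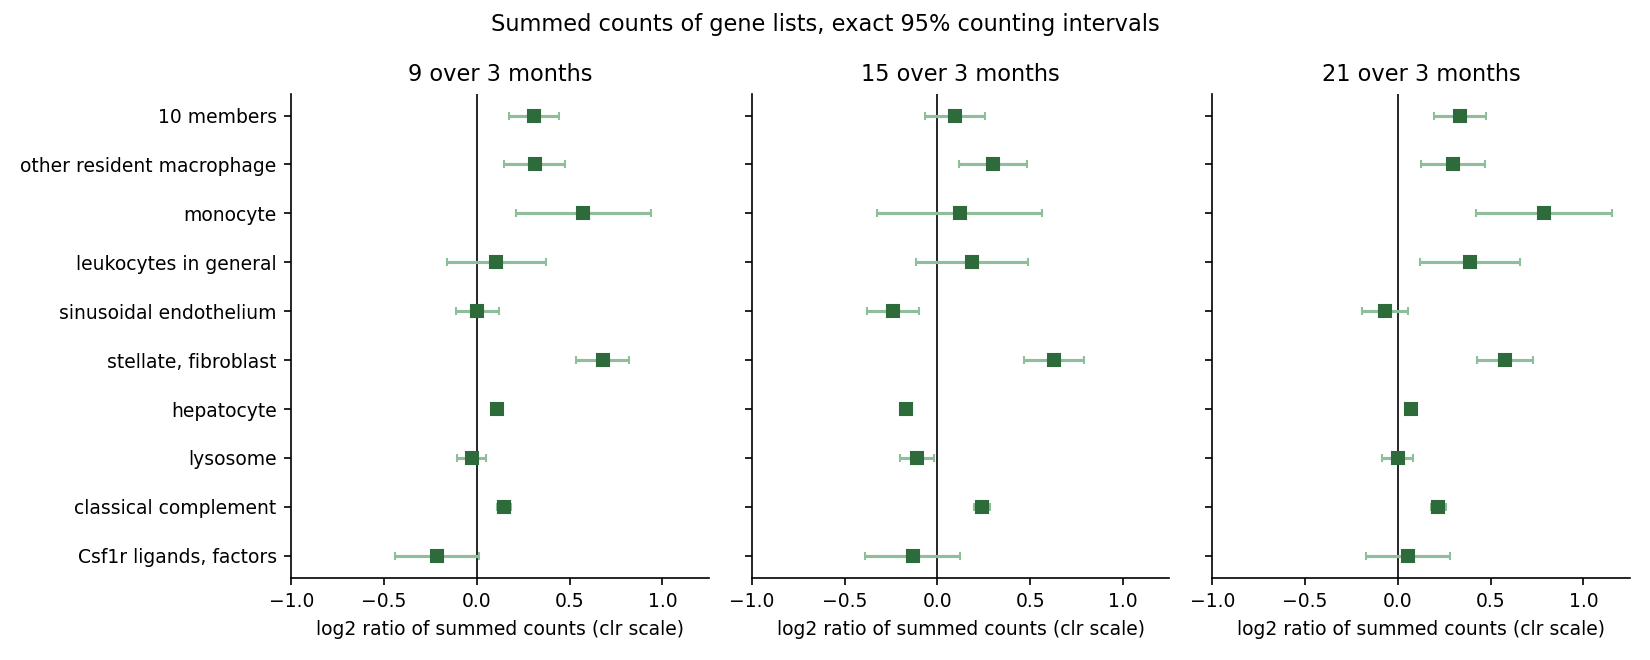
Log2 ratio of the summed counts of gene lists at 9, 15 and 21 months over 3 months on the clr scale (horizontal axes), by list (vertical axis). Squares are 1 library against 1 library and bars are exact 95% counting intervals. The 10 macrophage genes and the other resident macrophage genes are near 0.3 at 9 and 21 months, the stellate list lies higher, and the endothelial list lies near or below 0. At 21 months the monocyte list lies highest.

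For orientation, the genes with the most similar course to that of the summed 10 genes were sought among 2438 genes with at least 100 counts in all and at least 1 in every library. Among the 5 closest, by the root mean square difference of the centered clr over the 4 libraries, were Snx5 (0.00998), D15Ertd621e (0.0109), Gm13680 (0.0167) and Eif4b (0.026). Snx5 had 43, 52, 27 and 43 reads and Eif4b 339, 394, 216 and 317. Of the 10 genes themselves, C1qb (0.0463) and Cd5l (0.0573) were closest to their sum and Marco (0.481) was farthest. With 4 points per gene, such likeness is a description only.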

How the data were processed

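For each pooled library, the authors deposited 1 file of raw read counts by gene symbol. The authors read capped 5’-ends (35 bp, SOLiD, 4 libraries on 1 lane), mapped them to mm9 with the CLC Genomic workbench, and the processing notes of the submitters name HTSeq. The annotation, strand setting and versions are not given in the sources used here. Rows for unassigned records (91.6% to 93.3% of all records, mostly non-unique alignments) were left out.

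Ratios were scaled by the geometric mean of 8704 genes, with exact Clopper-Pearson intervals, and shares got Wilson intervals at 95%. Slopes were tested with edgeR 4.0.16 (TMM, filterByExpr, Benjamini-Hochberg adjustment over all genes) and, as an alternative, DESeq2 1.42.0, in R 4.3.3. The SE of a slope is the slope divided by the root of F. Chi-square tests had 3 degrees of freedom. Python 3.11.15 with scipy 1.17.1 was used. The scripts were tested on simulated data. With 1 library per age, tests across libraries cannot separate age from differences between pools. The members and lists were chosen with earlier results of these data known. Named were all 10 members, the 3 most counted genes of each other list, genes of the lists passing the trend test, and the 5 closest courses, of which 1 is not reported here. Trem2, Gpnmb and the genes at 0 were named after their values were seen. Positions come from GENCODE M1 on NCBIM37, motifs from RefSeq windows on GRCm38.p6.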

Additional observations from a re-analysis of the deposited data

How the results depend on the processing

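No paired analysis was possible because there was 1 library per age and the labels give no replicate numbers. Alternatives for scale were TMM factors, DESeq2 size factors, library totals, the geometric mean of Atp5h, Gsk3b and Sirt2, genes with at least 10 counts, and a pseudocount of 1. The log2 ratio of the summed counts at 15 over 3 months (0.0944) became 0.279 with the 3 reference genes and -0.115 with the pseudocount, and at 21 over 3 months (0.335) it became 0.54 with the reference genes. No member was past 2-fold at 21 over 15 months with TMM factors or library totals (0, against 1). With 10 counts in every library, 5 members met both clr criteria instead of 8, and leaving out 1 library gave 7 to 9. The shares of all genes that met the criteria under these settings are not given, so that these numbers stand without a background. Of all genes, 6 passed the trend test, 0 with DESeq2 (123 at an unadjusted p under 0.05), and 7 to 23 when 1 library was left out (16 without the 15 month and 23 without the 21 month library). The cause of these differences was not tested. No member passed under any of these. The sum without Marco was added after the values had been seen. The other 103 alternative values of the main comparisons stayed within the intervals set for them or within 1.5 times the count. For a median log2 ratio, this interval ran between the medians of the lower and upper limits of the 10 genes. It is wide and not a counting interval of the median. At 15 over 3 months it ran from -0.644 to 0.723, so that a change of sign with the pseudocount (0.0372 to -0.152) still lay within it. With at most 43 counts per library, Marco, Vsig4, C1qa and Lyz2 are limited by depth.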
